A study of Malus domestica with 34 samples.

Results

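In apple seedlings (Malus domestica), 200 of 52311 gene identifiers were taken as those of steadiest expression across leaf and root. They were chosen by their measured counts. Each count was divided by the total of its library and multiplied by 1000000 (CPM), and the spread of a gene was the standard deviation (SD) of log2(CPM + 1) over all 34 libraries. Of the 4106 genes with a mean of at least 50 CPM, called the abundant genes here, the 200 with the smallest spread were kept. Because this spread already holds every difference between tissues, samplings and watering regimes, the size of those differences in the 200 genes is a description, and no test on them counts as support for their stability.

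A reference gene is a transcript whose level is taken as constant, so that quantitative PCR values of other genes can be expressed relative to it. Genes of basic cell maintenance, such as those for the cytoskeleton, protein turnover and translation, are the usual choice. Their levels are nevertheless known to differ between plant organs and under water shortage, which is why candidates are checked in the tissues and treatments of interest. The deposited table does not pair its identifiers with names, and 0 of them matched the RefSeq gene table used here, so the genes are given by identifier, without function, position or sequence. For the same reason neither the usual reference genes nor markers of leaf and root cells could be looked up, and the tissue labels were checked only by likeness of libraries: over genes with a mean of at least 1 CPM, all 34 libraries were most like another library of their own tissue.

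The plants were seedlings of a single genotype, the doubled haploid GDDH18 of Golden Delicious, 12 weeks old when the watering regimes began. Watered plants (64 in the regime) were held near 80% soil water content throughout, whereas drought plants (61 in the regime) went through 3 cycles of 3 weeks at 45% of field capacity and 3 weeks of rewatering. Both organs were sampled at the end of the first and of the third drought, and again in the next year once winter had passed. The drought plants of that last sampling had a history of drought and no current one. Each of the 12 groups of tissue, regime and sampling had 3 libraries, one for each sowing block, apart from next-year root with 2 in either regime because little root could be had. How many plants went into a library is not given in the sources read. Library totals were 25974815 to 68239819 counts in the 18 leaf libraries and 29963017 to 60194325 in the 16 root libraries. In the watered leaf library of the third sampling and block 2, the 10 most counted genes took 29.6% of all counts, against 5.54% to 9.37% in the other 33 libraries.

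The 200 genes had mean levels of 50.5 to 446 CPM with a median of 72.8 CPM, against a median of 85.5 CPM over all abundant genes. Of them, 55 had a mean of at least 100 CPM and 9 of at least 200 CPM. Their spread ran from 0.106 to 0.248 with a median of 0.212 on the log2 scale, whereas the median over the abundant genes was 0.647. As a coefficient of variation of CPM, the range was 7.58% to 18.8%. In CPM + 1, the highest library was a median 1.82 times the lowest, and at most 2.41 times. On that scale the extremes of all 34 libraries lay within 2-fold for 172 of the 200 genes, and within 3-fold for all 200. Together the genes held 1.40% to 1.99% of the counts of a library.

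The genes were nevertheless not constant down to counting error. Counting alone would give an SD of 0.011 to 0.032 on the log2 scale at these levels and depths, and the measured spread was a median 7.97 times as large, from 3.52 to 21.2 times. In the abundant genes as a whole the median ratio was 25.7.

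**Figure D1:**
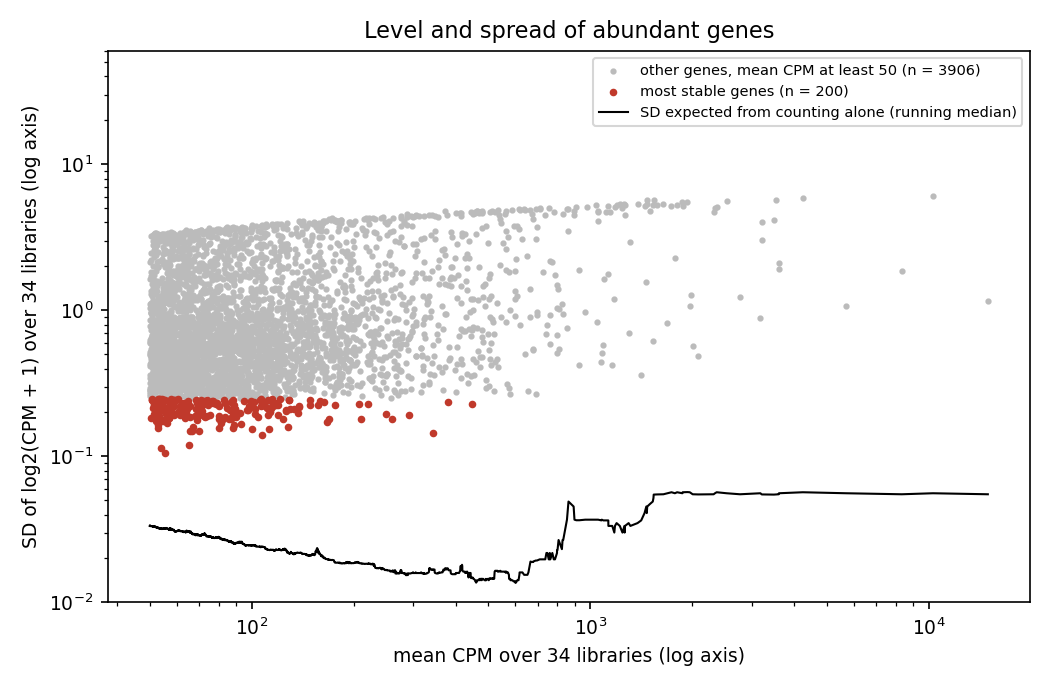
Spread against level for the 4106 abundant genes. The horizontal axis is the mean CPM and the vertical axis the SD of log2(CPM + 1), both over 34 libraries and both on log axes, with the 200 most stable genes in red, the other 3906 in grey, and the SD expected from counting as a black line (running median). The red points lie between 0.106 and 0.248 because the choice put them there, and all stand above the counting line.

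The 6 genes of smallest spread varied by 0.106 to 0.148 in SD. MD07G1296300 ranked first. Its level was 49.1 CPM at the lowest, 53.2 CPM at the median and 61.2 CPM at the highest in the 18 leaf libraries, and 50.3, 56.5 and 66.0 CPM in the 16 root libraries. The highest library of all 34 was thus only 1.34 times the lowest, and the tissues overlapped over most of their range.

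MD06G1125000 followed with an SD of 0.114, at 40.2, 55.1 and 61.8 CPM (lowest, median, highest) in leaf and 47.2, 53.2 and 58.4 CPM in root. MD14G1067500, with an SD of 0.119, had 50.9, 64.3 and 70.0 CPM in leaf and 56.8, 67.0 and 78.9 CPM in root. In both genes the lowest leaf value came from watered leaf in the third sampling, block 2, the library with the concentrated counts, and the leaf and root medians differed by less than the SD within either tissue.

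MD10G1068700, with an SD of 0.140, stood at 91.9, 106 and 118 CPM in leaf and 89.2, 110.0 and 126 CPM in root. MD12G1138800 had the highest level of the 6, at 249.9, 340.2 and 415 CPM in leaf and 295, 345 and 389 CPM in root, with an SD of 0.144. MD14G1126300 was the sixth with an SD of 0.148, at 54.4, 73.5 and 81.5 CPM in leaf and 57.0, 66.9 and 74.9 CPM in root. For 5 of these 6 genes the lowest leaf library was again that of watered leaf in the third sampling, block 2, and MD07G1296300 was the exception, with its lowest leaf value in a watered library of the next year.

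**Figure D2:**
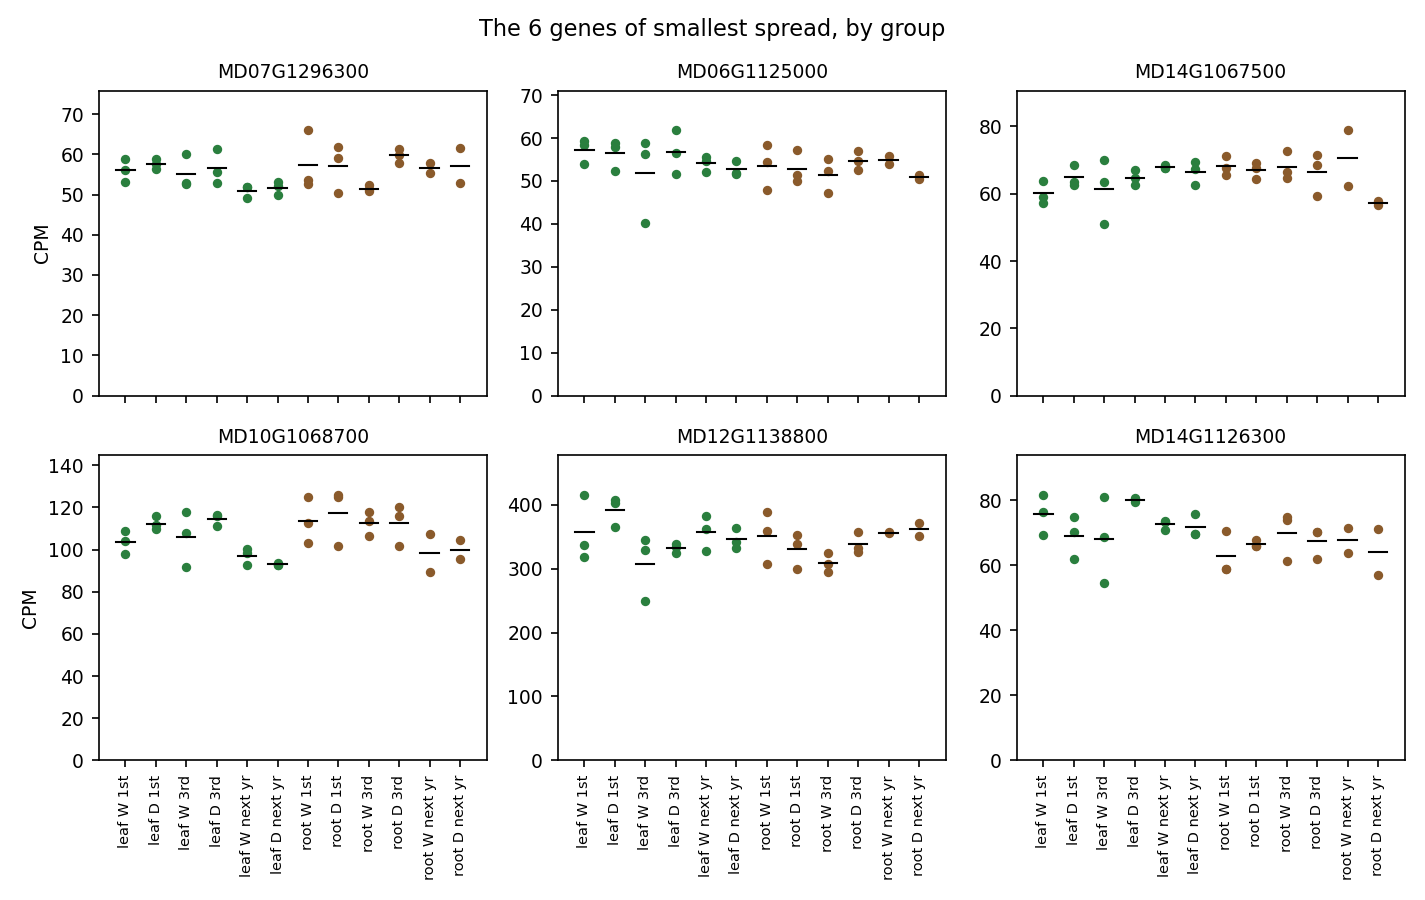
CPM of the 6 genes of smallest spread in each library (points, green leaf and brown root) with the group mean (black bar), by tissue, regime (W watered, D drought) and sampling; each vertical axis starts at 0 and there are 3 libraries per group, 2 in root of the next year. Leaf and root points overlapped in each gene, and the low point of watered leaf at the third sampling is the block 2 library, at 40.2 CPM for MD06G1125000 and 249.9 CPM for MD12G1138800.

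At the other end of the list, the limit fell where genes lay close together. The last gene inside, MD12G1257300, had an SD of 0.248 and levels of 75.8, 94.8 and 133 CPM (lowest, median, highest) in leaf and 97.3, 110.3 and 146 CPM in root. The first gene outside, MD11G1264000, had an SD of 0.249, with 44.9, 55.0 and 72.4 CPM in leaf and 35.5, 45.7 and 61.0 CPM in root. Membership near the limit therefore turned on differences of 0.001 in the SD.

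CPM is not corrected for transcript length, so the levels rank the genes by counts and not by transcripts. By counts, MD15G1320600 stood highest, at 391, 458 and 653 CPM in leaf and 314, 426 and 550.3 CPM in root, with the samplings accounting for 49.5% of its spread. MD12G1167600 stood lowest, at 36.5, 47.5 and 55.5 CPM in leaf and 48.0, 55.3 and 62.6 CPM in root, with tissue accounting for 51.2%.

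What remained of the spread was divided in order among tissue, sampling within tissue, regime within tissue and sampling, and libraries of the same group. In the 200 genes the median shares were 15.2% for tissue, 20.7% for sampling, 9.72% for regime and 43.4% within groups. In the abundant genes they were 70.4%, 9.61%, 2.55% and 13.0%. If libraries carried no group structure, the 33 degrees of freedom between libraries would give shares of 3.03%, 12.1%, 18.2% and 66.7%. In the 200 genes the median shares of tissue and sampling were above these, and those of regime and within groups below. In the abundant genes only that of tissue was above. The shares divide the spread by which the genes were chosen, so they describe the list. The largest share was that within groups for 119 of the 200 genes, tissue for 46, sampling for 34 and regime for 1. That gene was MD16G1235900, singled out for this value, with 32.8% for regime and 32.2% within groups. The SD within groups had a median of 0.164 in the 200 genes against 0.272 in the abundant genes. It too is part of the spread used in the choice, so nothing is read from that gap.

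The 200 genes still carried the tissue and the sampling of the libraries. Over these genes alone, all 34 libraries were most like another of the same tissue and 31 were most like another of the same tissue and sampling. Of the 34, 9 were most like another of the same group, which also shares the regime. At a given tissue and sampling, a library has fewer others of its own group than of the other regime. The sampling and group counts were not made over all abundant genes. Member genes also moved together: with libraries scaled by totals, 76.3% of the 19900 pairs of genes were positively correlated over libraries. The median correlation was 0.24 by totals and 0.48 with TMM scaling, and by totals the first principal component held 31.4% of their variance. Pairs of the other abundant genes were not looked at. These correlations describe points that share libraries and their scaling.

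Library by library, the median deviation of the 200 genes from their own means showed where they moved as a block. It lay between -0.36 and 0.11 on the log2 scale in leaf, and between -0.04 and 0.17 in root. The same measure over the abundant genes lay between -0.41 and 0.02 in leaf, and between 0.09 and 0.33 in root. Such shifts were therefore not particular to the 200. The leaf minimum of both sets belonged to watered leaf in the third sampling, block 2. There the 200 genes were also the smallest share of the counts, 1.40%. That library was the lowest of all 34 for 90 of the 200 genes, against 584 of the 4106 abundant genes, and was the highest for 0 of the 200. When the choice was repeated without it, 186 of the 200 genes were taken again.

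**Figure D3:**
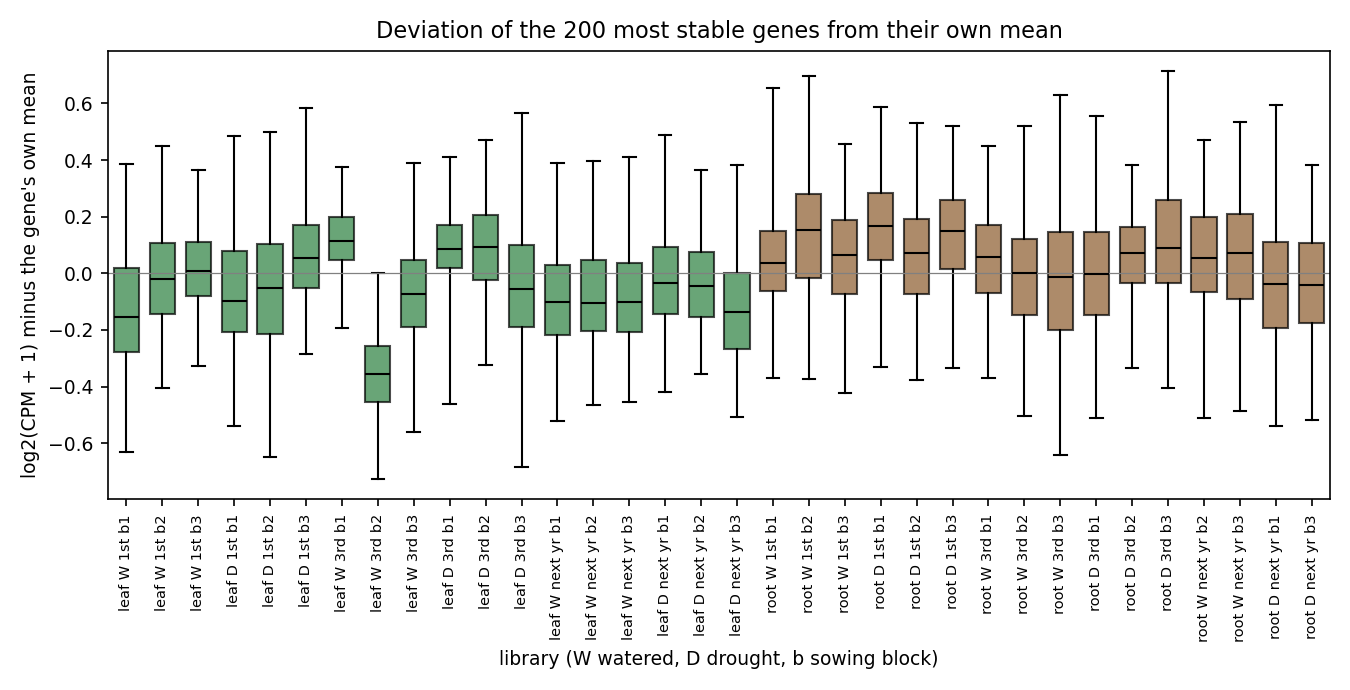
Deviation of the 200 genes from their own mean over 34 libraries, in log2(CPM + 1), for each library (green leaf, brown root; W watered, D drought; b sowing block). The line in a box is the median, the box the quartiles of the genes and the whiskers the lowest and highest gene. Watered leaf of the third sampling, block 2, stands lowest with a median of -0.36, and root libraries of the first sampling reach 0.17.

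The choice was then repeated in some libraries, and the spread was measured in libraries that it had not used. Each block held the same tissues, regimes and samplings as the others, apart from root of the next year. There block 1 held only the drought regime and block 2 only the watered regime. Leaving out a block therefore checks other libraries of the same conditions, and not new conditions. The 200 genes taken without block 1, 2 or 3 had a median SD of 0.211, 0.233 and 0.211 in the libraries of the block left out. All abundant genes had 0.651, 0.630 and 0.681 in the same libraries. Of each list of 200, 198, 200 and 195 genes were in the lowest 25% of spread in the libraries left out, and 0 were above the median in any of the 3 blocks. These lists shared 177, 171 and 165 genes with the list from all libraries. A choice in watered libraries measured in drought libraries was a check added after the data were seen. It gave 0.215 against 0.653, with 198 of 200 genes in the lowest 25% and 158 genes shared. Both regimes held the same tissues and samplings, and tissue was a median 70.4% of the spread of the abundant genes. This check therefore cannot tell stability under drought from a small difference between tissues.

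A choice made in a single tissue gave a different list. The 200 genes taken in leaf alone had a median SD of 0.180 within root libraries, against 0.286 for all genes abundant in leaf, with 128 of 200 in the lowest 25% and 20 above the median. The 200 taken in root alone had 0.192 within leaf libraries, against 0.320, with 148 in the lowest 25% and 15 above the median. Their mean levels differed between the tissues by a median of 0.50 and 0.64 in either direction on the log2 scale, against 1.03 and 0.895 for all genes abundant in leaf and in root, and 70 and 39 of them were among the 200 of all libraries.

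The direction of the remaining difference between leaf and root depended on how libraries were scaled. In CPM the leaf mean was above the root mean for 60 of the 200 genes, the median difference of leaf minus root was -0.12 on the log2 scale, and the means were within 1.25-fold for 183 genes and within 1.5-fold for all 200. The abundant genes had a median of -0.45, with 34.9% of them higher in leaf. Scaling by TMM, which estimates library size from the bulk of genes instead of the total, turned this round: the leaf mean was then above the root mean for 196 of the 200 genes, with a median of 0.23, and for 45.7% of the abundant genes, with a median of -0.09. DESeq2 size factors gave 196 genes and a median of 0.23 as well. In bulk tissue, fewer cells of a type and less RNA per cell cannot be told apart.

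In the test across all genes (edgeR quasi-likelihood with TMM scaling, Benjamini-Hochberg adjusted p under 0.05 taken as called), 145 of the 200 genes were called higher in leaf and 0 lower. Of all 35665 genes tested, 37.3% were called higher, 42% lower and 79.3% in either direction, and of the abundant genes 38.8%, 45.9% and 84.7%. With libraries scaled by their totals alone, 24 of the 200 genes were called higher and 86 lower, while 27.6% of all genes tested were called higher and 54.6% lower. The median log2 change of all genes moved from -0.06 to -0.41 between these scalings, and that of the 200 genes from 0.23 to -0.11, so relative to all genes the 200 stood about equally far toward leaf under both. The sizes were small in either case. With TMM, 174 of the 200 genes had a 95% interval of the log2 change wholly inside 1.5-fold and all 200 inside 2-fold. Of the 4106 abundant genes, 1216 had an interval inside 1.5-fold, a gap that the choice bears on.

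**Figure D4:**
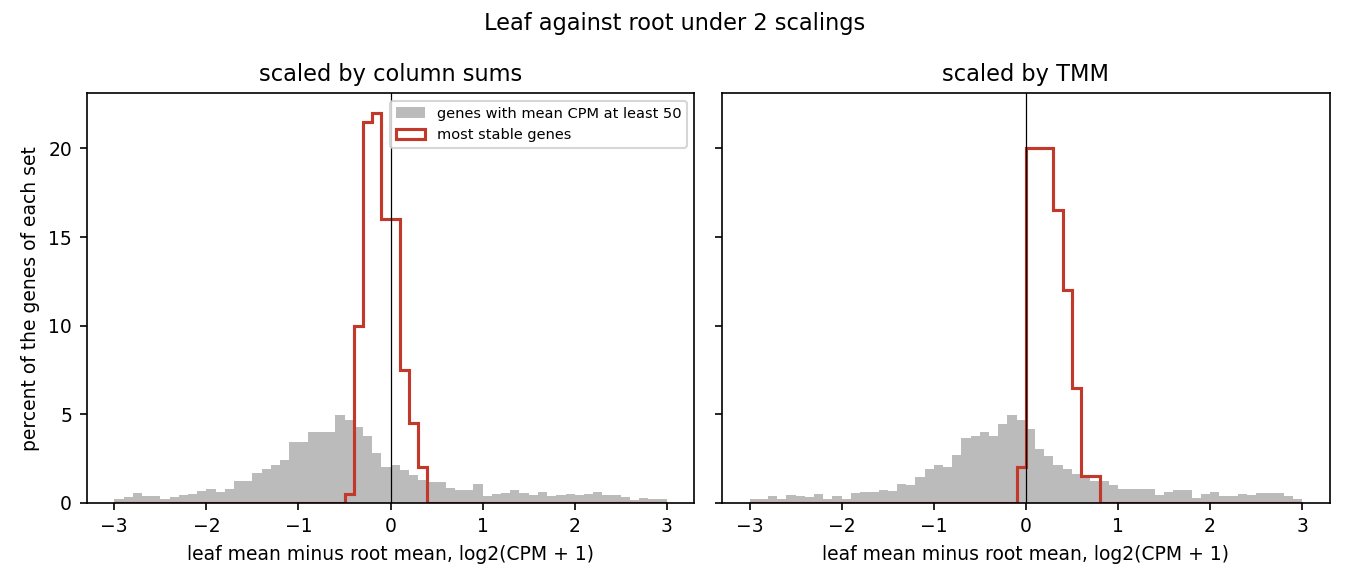
Difference between the leaf mean and the root mean in log2(CPM + 1), with libraries scaled by their totals (left) and by TMM (right), as the percent of genes per bin for the 200 most stable genes (red) and the 4106 abundant genes (grey). The axis ends at 3 either way, with 845 abundant genes beyond it on the left and 840 on the right. The red distribution moves from a median of -0.12 to a median of 0.23, and the grey from -0.45 to -0.09.

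The genes with the largest called tissue differences were still close in level. MD09G1004800 was at 48.8, 60.8 and 79.9 CPM (lowest, median, highest) in leaf and at 42.8, 46.7 and 54.4 CPM in root. Its level was 1.66-fold higher in leaf with TMM scaling, a log2 change of 0.73 ± 0.05 (SE), and 0.37 higher in log2 CPM scaled by totals. MD06G1173200 was at 107, 145 and 169 CPM in leaf and 94.8, 109 and 134 CPM in root, with a log2 change of 0.72 ± 0.06 with TMM and a difference of 0.35 by totals. In both genes the tissues overlapped in part of their range.

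Only 1 of the 200 genes had leaf and root libraries that did not overlap in CPM, against 45.3% of the abundant genes, a contrast that the choice used. This was MD09G1172300, named for that value, with 46.3 ± 4.40 CPM (SD, n = 18) in leaf and 62.2 ± 5.15 CPM (SD, n = 16) in root. Its log2 difference of -0.42 by totals was the lowest of the 200. With TMM scaling it was still the lowest, but the log2 change was only -0.07 with a 95% interval of -0.17 to 0.03, and it was not called.

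The effect of scaling on the choice itself was large. With TMM library sizes the same rule kept 64 of the 200 genes, and with DESeq2 size factors also 64, whereas these 2 new lists shared 190 genes with each other. All 3 scalings had 61 genes in common. The 136 genes lost under TMM included most of the 6 with the smallest spread, since only MD10G1068700 of the 6 was among the 61. Under TMM the SD of MD07G1296300 was 0.227 and that of MD12G1138800 was 0.301, while MD10G1068700 had 0.198.

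Ratios between genes of the same library hardly depend on scaling. The measure used by geNorm, M, is the mean SD of the log2 ratio of a gene to each of the other members, and a low M marks a gene that keeps its ratio to the rest. Among the 200 genes M ran from 0.203 to 0.331 with a median of 0.257, and it was lower within a tissue, with a median of 0.212 in leaf and 0.236 in root. The 200 genes taken by TMM had a lower median M among themselves, 0.223, and the 61 genes common to all scalings had 0.197.

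The lowest M belonged to MD17G1048200, at 0.203, a gene of rank 13 by spread. Its level was 54.4, 74.9 and 82.3 CPM (lowest, median, highest) in leaf and 77.1, 85.6 and 98.0 CPM in root. MD06G1234800 came next with an M of 0.210, at 93.7, 112 and 137 CPM in leaf and 107, 134 and 148 CPM in root. Both lay somewhat lower in leaf than in root by totals, by 0.21 on the log2 scale, and both were higher in leaf by TMM, by 0.14 and 0.15. Both were among the 61 genes common to all scalings, and both were called in at least 1 of the 13 comparisons made.

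The most alike pair was MD01G1054200 and MD07G1141100, whose log2 ratio had an SD of only 0.080 over the 34 libraries, against a median of 0.255 over all pairs. MD01G1054200 was at 62.4, 77.3 and 96.4 CPM in leaf and 75.4, 96.9 and 111 CPM in root. MD07G1141100 was at 46.8, 56.2 and 66.9 CPM in leaf and 61.0, 70.1 and 79.2 CPM in root. Their levels correlated with an r of 0.925 over 34 libraries, as a description of points that share libraries. Both differed between tissues by little with TMM, by 0.05 each in log2 CPM, and by -0.30 and -0.31 by totals, and neither was called in any of the 13 comparisons made.

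The use of the 200 genes as a yardstick was followed through to library sizes. The geometric mean of their counts, relative to the library totals, had an SD of 0.10 over the 34 libraries on the log2 scale. The corresponding SD was 0.23 for TMM and 0.24 for DESeq2 size factors. The genes were chosen for a steady share of the totals, so the smaller SD of their sizes follows from the choice. In leaf, TMM sizes were a median 0.17 below those from the 200 genes, and in root a median 0.15 above. Scaled by the 200 genes, 50 of the 200 were called higher in leaf and 60 lower, beside 29.8% and 51.9% of all genes tested. In numbers, 10617 of 35665 genes were called higher and 18506 lower, against 13309 and 14974 with TMM, and the median log2 change of all genes went from -0.06 to -0.32. How far the bulk of genes leaned toward root therefore depended on whether these 200 genes or the bulk itself was held level.

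**Figure D5:**
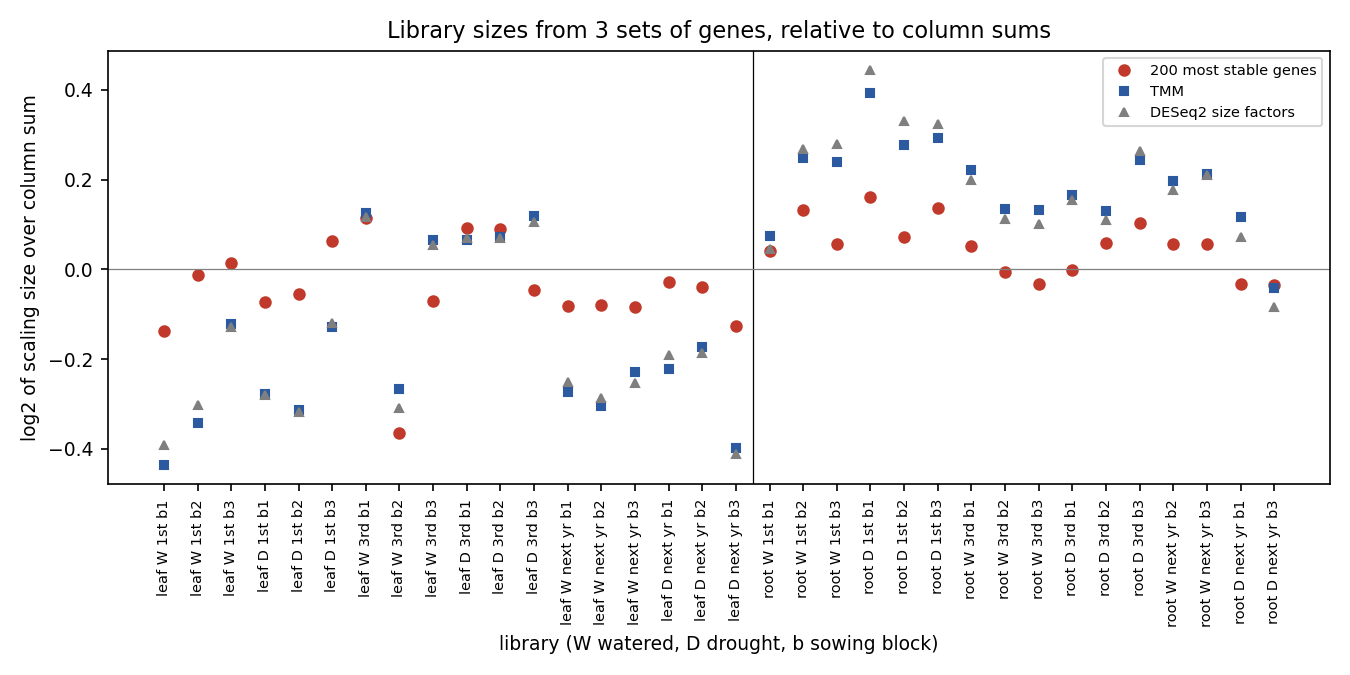
Library sizes from the 200 most stable genes (red), TMM (blue) and DESeq2 (grey), each as the log2 ratio to the library total, for 18 leaf libraries (left of the line) and 16 root libraries (right; W watered, D drought, b sowing block). The choice of genes by their share of the totals holds the red points near 0. In watered leaf of the third sampling, block 2, they give their lowest size, -0.36.

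Leaf after the first drought was the only regime comparison in which edgeR called any of the 200 genes. There, 1 of the 200 was called higher and 3 lower in drought leaves, and DESeq2 called 6 higher and 4 lower. Among all 32307 genes tested 5.13% were called higher, 6.67% lower and 11.8% in either direction, and among the abundant genes 4.36%, 6.47% and 10.8%. The choice used these libraries, so nothing is read from that gap. The log2 changes of the 200 ran from -0.55 to 0.55 around a median of -0.01. Intervals wholly inside 1.5-fold covered 186 of the 200 genes and 1561 of the 4083 abundant genes tested, a gap that the choice bears on.

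MD06G1174100 was the gene called higher. It was at 46.3, 56.4 and 56.9 CPM in the 3 watered leaf libraries and at 71.1, 82.6 and 84.3 CPM in the 3 drought libraries of the first sampling, so the groups did not overlap. The log2 change was 0.55 ± 0.10 (SE), or 1.46-fold. After the third drought it stood at 75.8, 56.3 and 68.4 CPM in watered and 63.6, 60.8 and 63.3 CPM in drought leaves, which overlapped.

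MD10G1062400 was lower, at 55.0, 51.3 and 59.0 CPM in watered and 38.0, 35.2 and 42.4 CPM in drought leaves of the first sampling, a log2 change of -0.55 ± 0.14 (SE). MD16G1235900 was at 137, 143 and 143 CPM in watered and 94.5, 103 and 108 CPM in drought leaves, a change of -0.50 ± 0.10. Neither pair of groups overlapped. The fourth gene, MD05G1282600, named only to complete the count, had a log2 change of -0.49 ± 0.14. Leaving out block 1 of either regime or block 2 of the drought regime left 2 of the 4 calls, and MD10G1062400 was among those lost each time. With libraries scaled by totals 1 call was left, and with only the 6 libraries of the comparison in the fit edgeR made 0 calls among the 200 (8 at an unadjusted p under 0.05), beside 386 higher and 796 lower among all 30297 genes then tested.

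In roots of the same sampling, drought and watered libraries gave 0 called genes of the 200 and 0% of all 33541 tested by edgeR. At an unadjusted p under 0.05 there were 0 of the 200 and 340 of all genes, and DESeq2 called 0. The intervals of 170 of the 200 genes lay inside 1.5-fold, beside those of 1444 of the 4064 abundant genes tested. In MD06G1174100, the gene that was higher in drought leaves, root levels were 68.3, 87.1 and 83.6 CPM watered and 88.8, 78.7 and 83.0 CPM drought. The difference between the leaf and root effects was called for 0 of the 200 genes and 0.157% of all genes (0.17% of the abundant genes) by edgeR. Its unadjusted p was under 0.05 for 5 of the 200 and for 3818 of all 35665 genes tested. DESeq2 called 1 of the 200.

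In the later samplings, at the end of the third drought and in the next year, edgeR called 0 of the 200 genes and 0% of all genes tested in leaf as in root. At an unadjusted p under 0.05 there was 1 of the 200 in leaf after the third drought, MD06G1174100, and 0 in leaf of the next year and in both root comparisons. DESeq2 called 0 of the 200 in all 4. Intervals inside 1.5-fold covered 200 and 200 of the 200 genes in leaf after the third drought and in the next year, and 180 and 124 in root. In the same order they covered 2411 and 2604 of the 4083 abundant genes tested in leaf, and 1527 and 807 of 4064 in root. The choice used these libraries, so nothing is read from these gaps. The lower number in root of the next year came with 2 libraries per group, and it fell to between 50 and 79 when any of those 4 libraries was left out.

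The change of the leaf drought effect from the first to the third cycle was called for 2 of the 200 genes upward and 1 downward, beside 3.54% and 2.23% of all 32307 genes tested, 5.76% in either direction, and 4.11% and 1.93% of the abundant genes, 6.05% in either direction. These were MD10G1062400, MD16G1235900 and MD06G1174100, the genes with values given for the first cycle, whose libraries enter this comparison too. After the third cycle MD10G1062400 was at 50.5, 40.0 and 42.4 CPM in watered and 51.3, 67.1 and 48.9 CPM in drought leaves. MD16G1235900 was at 137, 88.7 and 116 CPM in watered and 138, 132 and 131 CPM in drought leaves, where the lowest watered value was again that of block 2. The groups overlapped for both genes, in contrast to the first cycle. Without watered leaf of the third sampling, block 2, or without block 1 of either regime in the first sampling, 1 of the 3 calls was left in each case, that of MD06G1174100.

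Differences between samplings were looked at in watered plants, which never met drought. Of the 200 genes, edgeR called 45 lower and 0 higher in leaf from the first to the third sampling, beside 6.98% of all genes tested and 18.5% of the abundant genes called lower, and 15.1% and 20.3% called in either direction. The median log2 change was -0.25 for the 200 and -0.28 for the abundant genes, while with libraries scaled by totals that of the 200 was -0.04. The count rested on the scaling: with totals 1 gene was called, and with the 200 genes as the yardstick 4. It also rested on single libraries, with 1 call left when the first sampling lacked block 1, 7 when it lacked block 2, 12 when the third sampling lacked block 2 and 14 when it lacked block 3. With only the 6 libraries of the comparison in the fit, edgeR called 0 of the 200 and 5 of 30557 genes, with 41 of the 200 at an unadjusted p under 0.05, while DESeq2 with all leaf libraries called 60 of the 200.

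MD10G1013700 was at 95.5, 94.7 and 87.6 CPM in the first sampling and 72.7, 56.3 and 59.3 CPM in the third, a log2 change of -0.77 ± 0.16 (SE) in the TMM-scaled test. It stayed near those lower values in the next year, at 57.4, 65.3 and 55.2 CPM. In watered root it was at 90.2, 79.1 and 85.1 CPM in the first sampling and 81.2, 78.8 and 75.7 CPM in the third. MD13G1035700 was at 60.5, 60.5 and 67.0 CPM in watered leaf of the first sampling and 54.8, 39.0 and 47.8 CPM in the third, a change of -0.62 ± 0.14. For both genes the leaf samplings did not overlap, and for both the call was lost without block 1 of the first sampling.

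From the third sampling to the next year, 36 of the 200 were called higher in watered leaf and 0 lower, beside 9.82% of all genes tested and 18.7% of the abundant genes called higher, and 21% and 28.7% called in either direction. The median log2 change of the 200 was 0.19, beside 0.07 in the abundant genes, and that of the 200 was 0.01 by totals. With totals 3 were called higher and 2 lower, with the 200 genes as the yardstick 9 higher and 11 lower, and with only the 6 libraries in the fit 15 higher. Without block 1, 2 or 3 of the next year there were 15, 21 and 21 calls, and without block 1, 2 or 3 of the third sampling there were 25, 19 and 23. MD06G1174500 was at 54.9, 38.9 and 43.9 CPM in the third sampling and 68.8, 68.3 and 62.4 CPM in the next year. MD01G1153200 was at 61.7, 39.7 and 40.9 CPM and then 70.3, 63.9 and 71.3 CPM. Both had a log2 change of 0.71, with an SE of 0.12 and 0.15, and in neither gene did the samplings overlap.

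Watered roots gave no called gene among the 200 between samplings. By edgeR 0 of the 200 and 0% of all genes were called from the first to the third sampling, and 0 of the 200 and 0.0835% of all genes (0.0984% of the abundant genes) from the third to the next year. At an unadjusted p under 0.05 there were 7 and 11 of the 200, beside 1872 and 3252 of all 33541 genes tested. DESeq2 called 0 of the 200 in both. The intervals of 173 and 134 genes lay inside 1.5-fold, and the latter count became 66 and 71 without block 2 or block 3 of the watered next-year roots. With all root libraries in the fit, 1366 and 879 of the 4064 abundant genes tested had such intervals. MD01G1153200, one of the genes called in leaf, was at 52.7, 48.3 and 47.8 CPM in watered root of the third sampling and 51.5 and 62.6 CPM in the next year.

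Over all 13 comparisons, 161 of the 200 genes were called at least once and 39 never, or 19.5%, beside 10.7% of the abundant genes never called. With leaf against root set aside, 132 were never called, or 66%, beside 56.1% of the abundant genes. The choice used the libraries of all these comparisons, so nothing is read from these gaps. The 6 genes of smallest spread were each called at least once. Of the 61 genes common to all 3 scalings, 31 were called in no comparison. These 31 had mean levels of 50.5 to 208 CPM, an SD of 0.179 to 0.248 by totals and of 0.094 to 0.202 by TMM. Their M against all 200 genes was 0.218 to 0.268, which is not comparable with the M of the 61 genes among themselves. A missed call does not show a constant level, and both the scalings and the tests used the libraries that chose the genes.

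The letters and digits that open an identifier, MD00 to MD17, each opened some of the 200 genes. MD15 opened the most, 19 of 200 or 9.5%, and 378 of the 4106 abundant genes or 9.21%. MD03 opened the fewest, 5 or 2.5%, against 210 or 5.11% of the abundant genes, and MD11 opened 7 or 3.5%, against 258 or 6.28%. For each 100 abundant genes the number among the 200 ran from 2.38 in MD03 and 2.71 in MD11 to 6.19 in MD01.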

How the data were processed

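The values the authors deposited are estimated counts, in whole numbers, for gene identifiers. The submitters' processing notes name FastQC, Salmon, DESeq and DESeq2, with no version or role. Stranded mRNA libraries were sequenced in pairs of 100 bp, per the labels. No source read here states a build, an annotation or settings. Salmon shares out reads that several transcripts could have given, which leaves close gene copies uncertain. Of 52311 identifiers, 8708 had no count in any library.

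CPM used column sums, with a pseudocount of 1 before log2. The 200 genes, the comparisons and the lists were chosen with earlier results of these data known. Counts were tested with edgeR 4.0.16 in R 4.3.3 (filterByExpr, TMM, glmQLFit with robust dispersions, glmQLFTest), and Benjamini-Hochberg adjusted p under 0.05 over all genes tested was called. All 200 genes passed the filter on low counts in every comparison. All 18 leaf or all 16 root libraries entered a fit, or all 34 where both tissues were compared. The SE was the log2 change divided by the square root of F. DESeq2 1.42.0 was an alternative. The scripts were tested on simulated data.

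Genes were named by a rule: the 6 of smallest SD, the 2 of smallest M, up to 2 called in each direction per comparison, the last inside and first outside the list, the highest and lowest by CPM, and the most alike pair. Genes outside it are said to be singled out. The lists of reference genes and cell markers needed gene names and could not be run.

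Replicate numbers stand for sowing blocks in the labels, and this pairs libraries of equal number. Over the abundant genes, the deviations (from group means) of paired watered and drought libraries had correlations of between 0.184 and 0.802 in the leaf samplings and between 0.326 and 0.783 in root of the third sampling, but between -0.834 and -0.267 in root of the first. In root of the next year the regimes shared only block 3, at 0.378. Over the 200 genes the correlations were between 0.326 and 0.761 in the leaf samplings, -0.220, 0.514 and 0.566 in root of the third, between -0.678 and -0.123 in root of the first and 0.398 in root of the next year.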

Additional observations from a re-analysis of the deposited data

Results flagged for a closer look

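For 3 of the 200 genes the drought effect in leaf differed between the first and the third cycle, by a test of that difference (interaction term, edgeR, adjusted p under 0.05). The difference, the third minus the first, was 0.757 ± 0.197 (SE, log2) for MD10G1062400, from a log2 change of -0.55 in the first cycle to 0.21 in the third. It was 0.623 ± 0.142 for MD16G1235900, from -0.50 to 0.12. It was -0.765 ± 0.141 for MD06G1174100, from 0.55 to -0.22. The watered libraries moved as well: from the first to the third sampling the log2 change in watered leaf was -0.51 for MD10G1062400, -0.52 for MD16G1235900 and 0.13 for MD06G1174100. The first 2 calls were lost without watered leaf of the third sampling, block 2, with differences of 0.826 and 0.592, and that library's part in the result was not tested beyond this. The comparison was also made in the libraries that had chosen the genes, so these 3 values describe the list and do not stand for leaf genes at large.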

How the results depend on the processing

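The list kept 165 to 196 of its 200 genes when any library or any block was left out, 190 with block means removed (replicate block), and 156 to 200 under other pseudocounts, the coefficient of variation, the range, group means or watered libraries alone. It kept 69 with a minimum of 20 CPM, 55 with 100 CPM, 0 with no minimum, 64 with TMM or DESeq2 size factors, 70 from leaf alone and 39 from root alone; 61 were in the lists of all 3 scalings, a count chosen after seeing the data. With the replicate block, 144 of the 200 were called in leaf against root, 4 in leaf drought of the first sampling, 50 from the first to the third sampling and 30 from the third to the next year in watered leaf, and the block changed no count of calls among the 200 by over 1.5 times.

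Calls among the 200 that moved were, for leaf drought in the first sampling (4), 10 with DESeq2, 1 with totals and 0 with only the groups compared, and 2 to 4 with a library left out. For watered leaf in the third against the first sampling (45) they were 1 with totals, 0 with only the groups compared, 4 scaled by the 200 genes, and 1 to 66 with a library left out. For the next year against the third sampling (36) they were 5, 15 and 20 in the same order, and 15 to 25. For the change of the drought effect (3) they were 7 with DESeq2, 0 with totals and 0 with only the groups compared, and 1 to 4. DESeq2 called 1 for the drought effect of leaf minus root. Intervals inside 1.5-fold for the change of the drought effect went from 133 to 72 with totals, in watered root of the next year against the third sampling from 134 to 66 to 119 and in root drought of the next year from 124 to 50 to 79 with a library left out. Where a library left out leaves a lone one in its group, that one is assumed to vary like the other groups. The cause was not tested. The log2 changes of the genes named as called kept their sign under the other scalings, the replicate block and any library left out. The remaining settings were not looked at for this. Leaf against root did turn with the scaling: calls among the 200 were all higher with TMM and mostly lower with totals. The leaf minus root difference of MD17G1048200, named for its M, was 0.14 with TMM and -0.21 by totals.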
